A study of Mus musculus with 12 samples.

Results

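The genes described here are keratins and components of epithelial cell junctions, read in mouse embryo fibroblasts (MEFs). They were chosen by gene symbol, whatever their signal: the keratins Krt7, Krt8, Krt18 and Krt19, and the junction genes Cdh1, Epcam, Cldn4, Cldn6, Cldn7 and Ocln. These 10 genes are read by 12 of the 45281 probes of the array, on which 19057 genes are named. Testing was limited to probes with a detection p-value under 0.05 on each array of 1 or more groups. The 7 genes Krt8, Krt18, Krt19, Cdh1, Cldn4, Cldn7 and Ocln passed, among 10873 genes in all, and Krt7, Epcam and Cldn6 did not.

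The cells came in 2 genotypes, TAp73+/+ and TAp73-/-, where TAp73 is the form of the transcription factor p73 that carries the transactivation domain. Cells of each genotype were either left untreated at 21% oxygen or kept at 1% oxygen (hypoxia) for 4 h or 8 h, and all were grown in medium with serum. Each of the 6 groups has 2 arrays, 12 in all. The labels name no MEF line or embryo and do not say whether replicates are separate cultures. The p-values therefore measure the spread between arrays, which may be technical, and each genotype may stand for 1 line, so that genotype and line cannot be told apart.

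Keratins are intermediate filament proteins, and simple epithelia build their filaments from a type II keratin such as K7 or K8 paired with a type I keratin such as K18 or K19. E-cadherin, encoded by Cdh1, joins neighbouring epithelial cells at adherens junctions, while claudins and occludin form the tight junctions that seal the space between them. Fibroblasts are usually recognised by vimentin and collagens and by low levels of these epithelial genes, and repressors such as Snai1 and Zeb1 bind E-box sequences in epithelial promoters.

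Promoter sequence is shown for 3 genes whose transcripts differed between conditions in these data: Krt8 and Krt18, which encode partner keratins and are neighbouring protein-coding genes on chromosome 15, and Cldn4, which responded to hypoxia. The sequences are the 250 bases before the start of each gene, from RefSeq with build GRCm38.p6, written 5′ to 3′ on the gene's strand. Capitals mark each ACGTG, each GCGTG (both cores of the hypoxia response element) and each CAGGTG (an E-box) on either strand, so that CAGGTG may appear as CACCTG, and no match overlaps another in these 3.
Krt8, chr15:102004343-102004592, minus strand: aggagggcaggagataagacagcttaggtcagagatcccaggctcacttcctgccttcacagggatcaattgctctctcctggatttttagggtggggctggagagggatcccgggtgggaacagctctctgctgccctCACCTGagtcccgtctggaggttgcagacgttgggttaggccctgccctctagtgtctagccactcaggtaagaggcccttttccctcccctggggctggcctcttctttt
Krt18, chr15:102027966-102028215, plus strand: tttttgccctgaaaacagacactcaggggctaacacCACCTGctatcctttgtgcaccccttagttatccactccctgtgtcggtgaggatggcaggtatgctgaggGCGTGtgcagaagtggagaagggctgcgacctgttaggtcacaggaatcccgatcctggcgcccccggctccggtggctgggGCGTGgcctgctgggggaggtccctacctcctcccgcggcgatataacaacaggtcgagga
Cldn4, chr5:134946935-134947184, minus strand: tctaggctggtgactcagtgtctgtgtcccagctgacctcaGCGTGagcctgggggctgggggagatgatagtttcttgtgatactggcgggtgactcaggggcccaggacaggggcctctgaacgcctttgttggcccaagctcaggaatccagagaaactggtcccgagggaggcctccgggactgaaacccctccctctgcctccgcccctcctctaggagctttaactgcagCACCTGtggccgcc
The Krt8 window holds 1 CAGGTG and neither hypoxia core, the Krt18 window 2 GCGTG and 1 CAGGTG, and the Cldn4 window 1 GCGTG and 1 CAGGTG. RefSeq promoters were at hand for 8 of the 10 genes, not for Krt19 and Cdh1, with 10 windows in all. Cldn7 and Ocln have more than 1 window each, and those of Ocln overlap, so the windows are not independent. Of the 10 windows, 7 hold ACGTG or GCGTG, against 38.6% of all 32841 promoters of the same length, and 8 hold CAGGTG, against 17.2%. None holds the p53-family half-site on either strand, which 7.13% of all promoters hold. A match describes these letters only and does not show that a factor binds there.

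Before the members, some facts of the arrays bear on every result. Between 42.8% and 44.5% of probes were detected on each array, and arrays of a group correlated at r = 0.995 to 0.997. The Trp73 probe, which reads the gene encoding p73, was detected on none of the 6 arrays labelled TAp73+/+, with group means of 4.76, 4.48 and 4.64 (log2 signal) untreated, at 4 h and at 8 h. Among arrays labelled TAp73-/- detection was reached on 1 of 2 untreated, 2 of 2 at 4 h and 2 of 2 at 8 h, with means of 5.02, 5.86 and 6.22. The probe thus read more under the label TAp73-/- than under TAp73+/+. Where this probe lies relative to the deleted part is not given in the sources used here. It therefore cannot check the labels, and genotype below means the label. Probes of 1 gene also disagree with each other to a degree that differs between arrays. A score of this disagreement, the first component of probe minus gene mean over 4571 genes with several probes, carries 50.2% of that variance. Untreated TAp73+/+ arrays scored 0.386 and 0.590, with -0.104 to 0.302 on the other TAp73+/+ arrays and -0.365 to -0.0934 on the TAp73-/- arrays.

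The cell label was set against marker genes. Of 15 fibroblast markers, 7 passed the filter and 6 were detected on all 12 arrays, among them Vim, which encodes vimentin, and Fn1, which encodes fibronectin. The fibroblast collagen genes Col1a1 and Col1a2 were detected on no array and Col3a1 on 1, and Dcn, Lum, Postn and Fap were detected on none. Of 23 regulators and membrane proteins of epithelial identity on the array, 14 passed the filter and 13 were detected on all 12 arrays. Those on all arrays include Spint1, a protease inhibitor of epithelial surfaces, Klf5 and Grhl2, both transcription factors, and Esrp1, an epithelial splicing regulator, whereas Trp63, a basal epithelial regulator, was detected on none. All 11 regulators of the mesenchymal transition passed too. The arrays thus read some fibroblast markers beside epithelial regulators, and several defining fibroblast genes were not detected. The summed signal of the fibroblast markers was 12.03 to 12.38 (log2) on the untreated TAp73+/+ arrays and 12.91 to 13.58 on the other 10. Linear signals were summed, so Vim, the brightest with a mean of 12.37, weighs most, and the markers did not all go the same way. By the limma test described below, 5 of the 7 tested were higher in untreated TAp73-/- than in untreated TAp73+/+ cells, and Pdgfrb and Ddr2 were lower. Of all genes, 18.0% were called higher and 20.4% lower in that comparison. After 4 h of hypoxia in TAp73+/+, 3 were higher and 3 lower than untreated, where 28.0% of all genes were called in either direction. The summed signal of the epithelial regulators was 13.59 to 13.75 in TAp73+/+ and 13.42 to 13.52 in TAp73-/-. In bulk cultures, fewer cells of a type and less RNA per cell cannot be told apart.

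**Figure D1:**
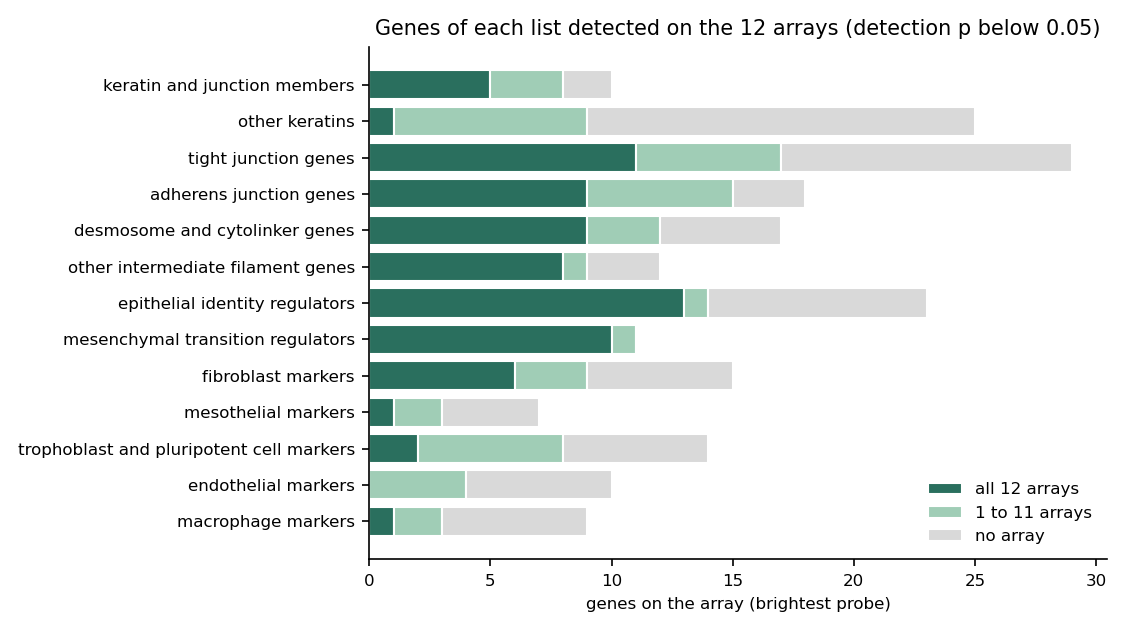
Number of genes of each list (x axis, labelled brightest probe) detected on all 12 arrays, on 1 to 11 or on none. Lists are the keratin and junction members and 12 others. A gene with several probes is counted by the probe detected on the most arrays, which need not be the brightest. Of the 10 members 5 were detected on all arrays, whereas of 25 other keratins 1 was, and of 15 fibroblast markers 6 were.

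Hypoxia raised Krt19 in both genotypes, more than any other member, and by 8 h it raised Cldn4 as well. The arrays labelled TAp73-/- read Krt8, Krt18 and Cdh1 higher and Ocln lower than those labelled TAp73+/+ at all 3 times, with Cldn4 higher at 4 h and 8 h only. Cldn7 was called in none of the 12 comparisons, and no member was called for a difference between the genotypes in its hypoxia response. A gene is called where limma's moderated test, adjusted by Benjamini-Hochberg over all 10873 genes, gives a p under 0.05, and differences below are log2 differences ± their SE with 2 arrays a group.

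For scale, calls were common on these arrays. Between the genotypes, 38.4% of all genes were called untreated, 36.5% at 4 h and 36.3% at 8 h, and 5 of the 7 tested members were called at each time, 4 higher and 1 lower in TAp73-/-. By direction, the background was 18.0% of genes higher and 20.4% lower untreated, 18.5% and 18.0% after 4 h, and 18.2% for each after 8 h. Averaged over the 3 times, 59.8% of genes and 6 of the 7 members were called. In TAp73+/+ cells hypoxia changed 28.0% of genes and 2 members at 4 h, and 23.9% of genes and 3 members at 8 h. In TAp73-/- cells it changed 6.96% of genes and 1 member at 4 h, and 20.9% of genes and 2 members at 8 h. Between 4 h and 8 h, 13.8% of genes and 2 members were called in TAp73+/+, and 10.6% of genes and 2 members in TAp73-/-. For the difference in response, 0.304% of genes at 4 h and 0.478% at 8 h were called, and no member in either. At an unadjusted p below 0.05 in the same test there were 2 members at 4 h, Krt19 and Cldn4, and none at 8 h. The share of all genes at that looser threshold was not counted, so the shares above are no background for these 2. The median difference between the genotypes over the tested members was 0.35 untreated, 0.34 at 4 h and 0.39 at 8 h, against -0.03, -0.03 and -0.01 over all genes.

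Krt19 encodes K19, a type I keratin of simple and stratified epithelia that lacks most of the usual tail. Its probe read 9.26 and 9.50 (log2 signal) in untreated TAp73+/+ cells, 10.88 and 10.94 after 4 h of hypoxia, and 11.62 and 11.50 after 8 h. The TAp73-/- values were 10.01 and 10.23 without hypoxia, then 11.20 and 10.69 after 4 h, then 11.89 and 11.80 after 8 h. Within each genotype the 3 conditions do not overlap, with the untreated arrays lowest and the 8 h arrays highest. After 4 h in TAp73+/+ cells Krt19 had risen by 1.53 ± 0.16, or 2.89-fold, with an adjusted p of 0.000133 in limma. By 8 h the rise was 2.18 ± 0.16, or 4.55-fold (adjusted p = 6.69e-06). For TAp73-/- the rise was 0.83 ± 0.16 after 4 h, or 1.78-fold (adjusted p = 0.0128), and 1.73 ± 0.16 after 8 h, or 3.31-fold (adjusted p = 5.02e-05). At 8 h it stood 15th in TAp73+/+ and 27th in TAp73-/- of the 10873 genes ordered by their increase.

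The increase of Krt19 between 4 h and 8 h was 0.66 ± 0.16 in TAp73+/+ (adjusted p = 0.0222) and 0.89 ± 0.16 in TAp73-/- (adjusted p = 0.00995). Leaving out any of the 4 TAp73+/+ arrays compared ended the first call, with adjusted p of 0.0947 to 0.119. The second was lost without 4 h replicate 2 or either 8 h array of TAp73-/- (0.0504 to 0.0610). The 4 h rise in TAp73-/- was lost without untreated replicate 1, at 0.72 (adjusted p = 0.0922), or without 4 h replicate 1, at 0.58 (adjusted p = 0.0510). Both 8 h rises were called with any array left out.

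Untreated, Krt19 was higher in TAp73-/- by 0.74 ± 0.16 (adjusted p = 0.00428). At 4 h the difference was 0.04 (95% interval -0.31 to 0.39, adjusted p = 0.859) and at 8 h it was 0.28 (-0.07 to 0.63, adjusted p = 0.191), neither of which was called. The response was smaller in TAp73-/- by 0.70 ± 0.22 at 4 h and by 0.46 ± 0.22 at 8 h, and neither difference passed the test (adjusted p = 0.152 and 0.373). In order of group mean, TAp73-/- at 8 h (11.84) was followed by TAp73+/+ at 8 h (11.56), then by the 4 h groups at 10.95 and 10.91, which differ by less than the pooled SD of 0.18. The untreated groups came last at 10.12 and 9.38.

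**Figure D2:**
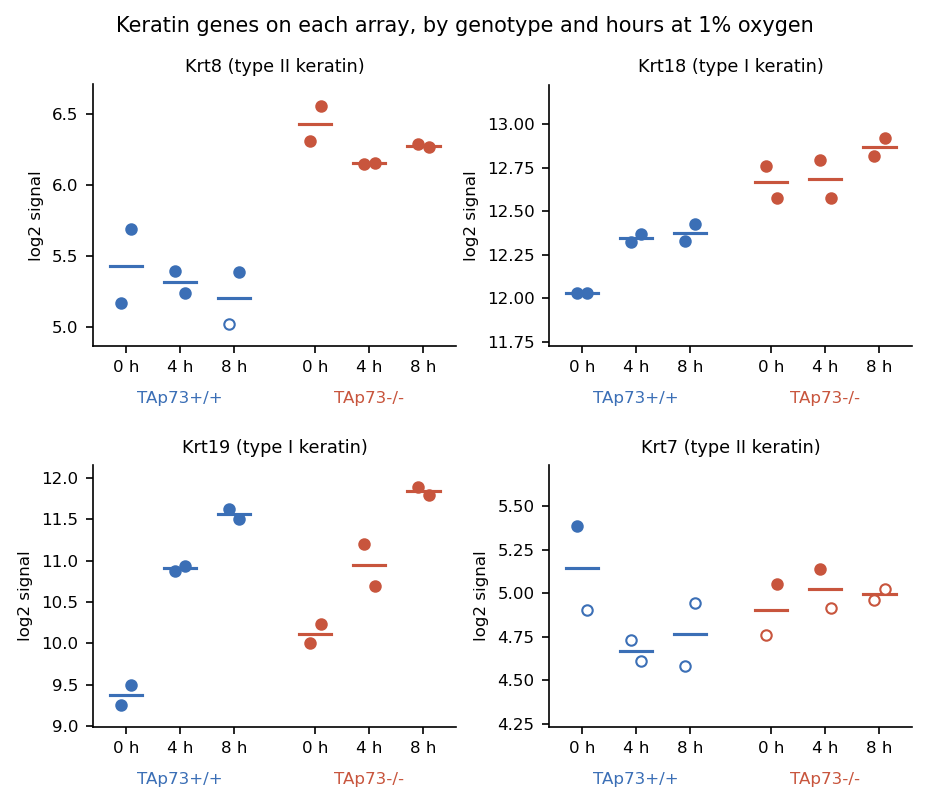
Log2 signal of the 4 keratin genes on each array (y axis, scaled for each gene) by genotype and hours at 1% oxygen (x axis, 0 h is untreated); filled points are arrays on which the probe was detected, open points arrays on which it was not, and lines are group means of 2 arrays. Krt19 climbs with time in both genotypes, whereas Krt8 lies between 5.02 and 5.69 on TAp73+/+ arrays and between 6.15 and 6.55 on TAp73-/- arrays.

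Krt18 encodes K18, the type I partner of K8. It read 12.03 on both untreated TAp73+/+ arrays, then 12.32 and 12.37 after 4 h, then 12.33 and 12.42 after 8 h. For TAp73-/- the untreated arrays gave 12.76 and 12.57, the 4 h arrays 12.79 and 12.57, and the 8 h arrays 12.81 and 12.92. Every TAp73-/- array thus lay above every TAp73+/+ array. The difference was 0.63 ± 0.11 in untreated cells, 0.34 ± 0.11 after 4 h and 0.49 ± 0.11 after 8 h, or 1.26-fold to 1.55-fold, with adjusted p of 0.00118, 0.0328 and 0.00532. The 4 h call was lost without either TAp73+/+ array of that time or without replicate 1 of TAp73-/- (adjusted p = 0.0993 to 0.162), with a value down to 0.23.

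In TAp73+/+ cells it was 0.34 ± 0.11 higher at 8 h (adjusted p = 0.0419), which was called, and 0.31 ± 0.11 higher at 4 h (adjusted p = 0.0526), which was not. The 8 h call was lost without any of the 6 TAp73+/+ arrays or either 8 h array of TAp73-/- (adjusted p = 0.0553 to 0.193), and when every probe was tested on its own (adjusted p = 0.0585). The 4 h value was called without background correction (0.31, adjusted p = 0.0234) and under 4 other settings. Of these, the deposited values gave the same difference and adjusted p, so they add no separate support. The TAp73-/- differences of 0.02 at 4 h and 0.20 at 8 h were not called (adjusted p = 0.947 and 0.219).

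Krt8 encodes K8, the type II partner of K18, and its probe was detected on 11 arrays. In TAp73+/+ the untreated arrays gave 5.17 and 5.69, the 4 h arrays 5.40 and 5.24, and the 8 h arrays 5.02, which missed detection, and 5.39. In TAp73-/- the untreated arrays gave 6.31 and 6.55, the 4 h arrays 6.15 and 6.16, and the 8 h arrays 6.28 and 6.27. The genotypes do not overlap at any time. Krt8 was higher in TAp73-/- by 1.00 ± 0.17 in untreated cells, 0.83 ± 0.17 after 4 h and 1.07 ± 0.17 after 8 h, with adjusted p of 0.00118, 0.00388 and 0.000827. These are 2.01-fold, 1.78-fold and 2.10-fold, and all 3 calls were kept with any array left out. The TAp73+/+ signals lie near the lowest that counted as detected on those arrays, 5.02 to 5.08 (log2). Before correction and normalization, the untreated intensities were 86.4 and 102 in TAp73+/+ and 136 and 139 in TAp73-/-. At 8 h they were 80.6 and 89.7 against 112 and 106, so the size of the folds depends on the processing. Hypoxia left no call for Krt8 in either genotype, with differences from -0.28 to -0.11. The second Krt8 probe was detected on no array, with signals of 4.33 to 4.61, so the difference rests on 1 of the 2 probes.

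Krt7 encodes K7, a type II keratin of glandular and ductal epithelia. Its probe was detected on 3 of the 12 arrays, 1 of untreated TAp73+/+ cells, 1 of untreated TAp73-/- cells and 1 of TAp73-/- cells at 4 h. Signals ran from 4.58 to 5.39 with a median of 4.93, and the highest and the lowest came from TAp73+/+ arrays. It was not tested, since no group had it detected on both arrays.

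Cdh1 encodes E-cadherin, the cell adhesion molecule of epithelial adherens junctions. Its brighter probe gave 8.69 and 8.37 on the untreated TAp73+/+ arrays, 8.36 and 8.39 on the 4 h arrays and 8.33 and 8.27 on the 8 h arrays. The TAp73-/- arrays gave 8.91 and 8.85 before hypoxia, 8.86 and 8.996 after 4 h and 8.81 and 9.06 after 8 h. All 6 TAp73-/- arrays lay above all 6 TAp73+/+ arrays. The gene was higher in TAp73-/- by 0.55 ± 0.13 after 4 h, or 1.46-fold (adjusted p = 0.00693), and by 0.63 ± 0.13 after 8 h, or 1.55-fold (adjusted p = 0.00305). Untreated it was higher by 0.35 ± 0.13 (adjusted p = 0.0475). That last call was lost with 7 of the 12 arrays left out in turn, namely untreated TAp73+/+ replicate 2, either untreated TAp73-/- array, and each 4 h or 8 h TAp73+/+ array (adjusted p = 0.0648 to 0.277, value down to 0.19). It was also lost when every probe was tested on its own (adjusted p = 0.0560) and without the detection filter (adjusted p = 0.0647).

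Hypoxia did not give a call for Cdh1 in either genotype, with differences of -0.15 and -0.23 in TAp73+/+ and 0.05 at both times in TAp73-/-. The 95% interval that reaches furthest from 0 is that of 8 h in TAp73+/+, from -0.51 to 0.05. A second Cdh1 probe, designed on another transcript record, was detected on 2 arrays, both TAp73+/+, with signals of 4.47 to 5.22. It did not pass the filter.

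Epcam encodes an epithelial adhesion molecule that is widely used to mark epithelial cells, and it was detected on no array. Its signals ran from 4.36 to 4.68. The brighter Cdh1 probe was detected on all 12 of these arrays.

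Cldn4 encodes claudin-4, a tight junction protein of many simple epithelia. The untreated TAp73+/+ arrays read 5.42 and 5.62, the 4 h arrays 4.85, which missed detection, and 5.17, and the 8 h arrays 6.15 and 6.17. The untreated TAp73-/- arrays read 5.83 and 5.69, the 4 h arrays 5.91 and 5.83, and the 8 h arrays 6.57 and 6.53. The 8 h arrays are the highest of each genotype and do not overlap the others. Against untreated cells Cldn4 rose at 8 h by 0.64 ± 0.12 in TAp73+/+ (adjusted p = 0.00442) and by 0.79 ± 0.12 in TAp73-/- (adjusted p = 0.00148), or 1.56-fold and 1.73-fold. Both calls were kept with any array left out. Before correction and normalization, the TAp73+/+ intensities were 94.0 and 99.7 untreated and 123 and 120 at 8 h. Those of TAp73-/- were 113 and 98.4 untreated and 125 and 118 at 8 h, so the size of these folds depends on the processing.

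At 4 h the values of Cldn4 were different in the genotypes, although the difference between the responses was not called. For TAp73+/+ it fell by 0.51 ± 0.12 (adjusted p = 0.0112) on the log2 scale, and for TAp73-/- the difference was 0.11 (95% interval -0.16 to 0.38, adjusted p = 0.627). The difference between these responses was 0.63 ± 0.17 (adjusted p = 0.114). The fall was lost without untreated replicate 2 (-0.41, adjusted p = 0.0575) or 4 h replicate 1 of TAp73+/+ (-0.35, adjusted p = 0.113), and without background correction (-0.21, adjusted p = 0.0636). From 4 h to 8 h Cldn4 rose 2.22-fold, by 1.15 ± 0.12, in TAp73+/+ (adjusted p = 0.000585) and by 0.68 ± 0.12 in TAp73-/- (adjusted p = 0.0106). The second of these was lost without TAp73-/- 4 h replicate 2 or either 8 h array (adjusted p = 0.0525 to 0.0678).

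Between the genotypes, Cldn4 was higher in TAp73-/- by 0.86 ± 0.12 after 4 h, or 1.82-fold (adjusted p = 0.000397), and by 0.39 ± 0.12 after 8 h, or 1.31-fold (adjusted p = 0.0305). The 8 h call was lost without any of the 4 arrays compared (adjusted p = 0.0892 to 0.125). Before correction and normalization, the 8 h intensities of the genotypes overlapped, at 123 and 120 in TAp73+/+ and 125 and 118 in TAp73-/-. Untreated, the difference was 0.24 (95% interval -0.03 to 0.51, adjusted p = 0.153).

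**Figure D3:**
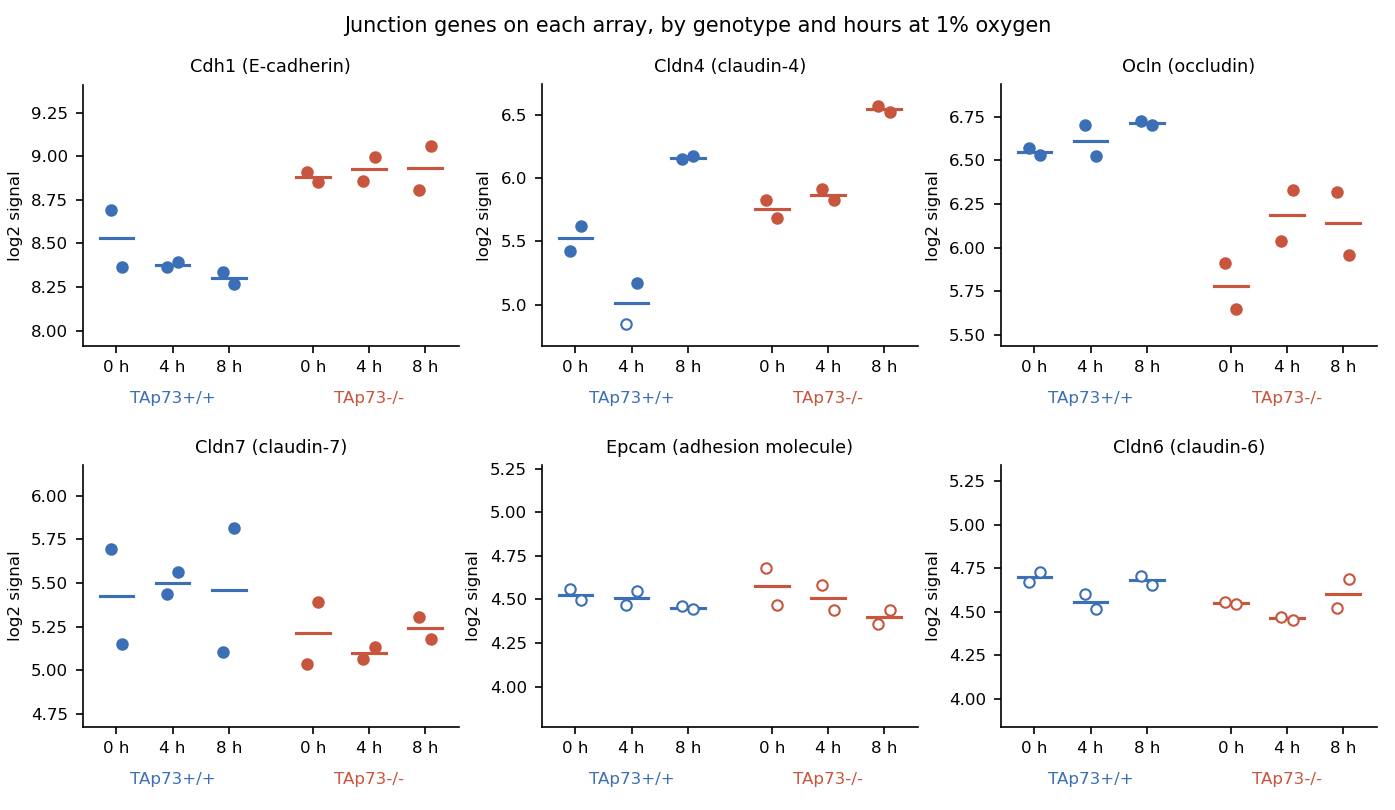
Log2 signal of the 6 junction genes on each array (y axis, scaled for each gene) by genotype and hours at 1% oxygen (x axis, 0 h is untreated); filled points are arrays on which the probe was detected, open points arrays on which it was not, and lines are group means of 2 arrays. Cdh1 lies higher and Ocln lower on every TAp73-/- array than on any TAp73+/+ array, and Cldn4 is highest at 8 h in each genotype.

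Ocln encodes occludin, a membrane protein of tight junctions, and was the only member called lower in TAp73-/-. The TAp73+/+ arrays read 6.57 and 6.53 before hypoxia, 6.70 and 6.52 after 4 h and 6.73 and 6.71 after 8 h. The TAp73-/- arrays read 5.91 and 5.65 before hypoxia, 6.04 and 6.33 after 4 h and 6.32 and 5.96 after 8 h. All 6 TAp73-/- arrays lay below all 6 TAp73+/+ arrays. The difference was -0.77 ± 0.15 in untreated cells, -0.43 ± 0.15 after 4 h and -0.58 ± 0.15 after 8 h, or 1.35-fold to 1.71-fold lower, with adjusted p of 0.00228, 0.0428 and 0.0115. The untreated call was kept with any array left out. The 4 h call was lost without any of the 6 TAp73+/+ arrays or TAp73-/- 4 h replicate 1 (adjusted p = 0.0512 to 0.223), with a value as near 0 as -0.28. It was also lost when every probe was tested on its own (adjusted p = 0.0554) and without the detection filter (adjusted p = 0.0656). The 8 h call was lost without either TAp73+/+ 8 h array or TAp73-/- 8 h replicate 2 (adjusted p = 0.0515 to 0.103). Under hypoxia the differences in TAp73-/- cells were 0.41 at 4 h and 0.36 at 8 h (adjusted p = 0.128 and 0.111), and in TAp73+/+ cells 0.06 and 0.17, none of which was called.

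Cldn7 encodes claudin-7, which also lies along the sides of epithelial cells. Its probe was detected on all 12 arrays. The TAp73+/+ arrays read 5.70 and 5.15 before hypoxia, 5.44 and 5.57 after 4 h and 5.10 and 5.82 after 8 h. The TAp73-/- arrays read 5.03 and 5.39 before hypoxia, 5.06 and 5.13 after 4 h and 5.30 and 5.18 after 8 h. The genotypes overlap untreated and at 8 h, and the TAp73+/+ replicates of 8 h lie on either side of the TAp73-/- ones. Averaged over the 3 times, Cldn7 was -0.28 ± 0.13 in TAp73-/- against TAp73+/+ (adjusted p = 0.0884). It was called lower without untreated TAp73+/+ replicate 2 (-0.37, adjusted p = 0.0317) or 8 h TAp73+/+ replicate 1 (-0.40, adjusted p = 0.0118). Cldn6, which encodes a claudin of embryonic epithelia, was detected on no array, with signals of 4.45 to 4.73.

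**Figure D4:**
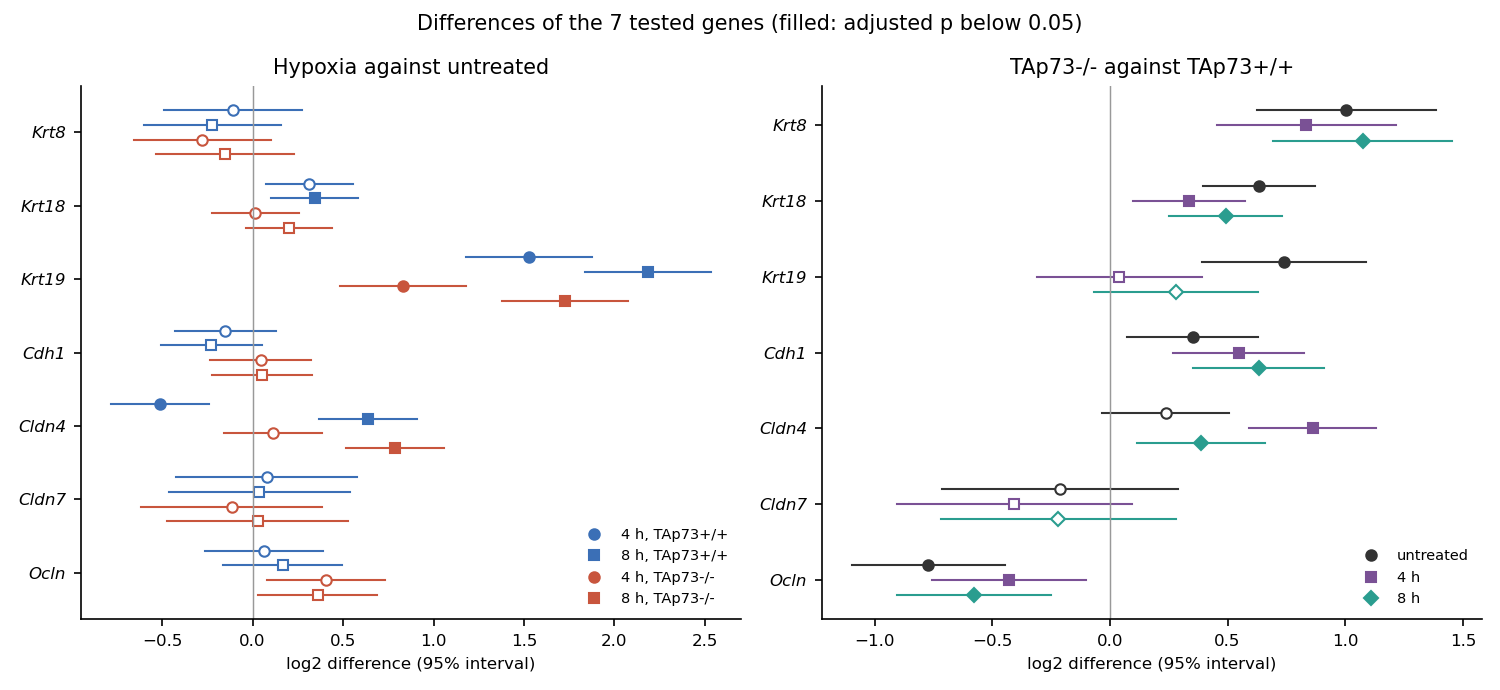
Log2 differences of the 7 tested members (x axis, with 95% intervals, 2 arrays a group): hypoxia against untreated cells in each genotype (left) and TAp73-/- against TAp73+/+ untreated, at 4 h and at 8 h (right); filled symbols are called. On the left Krt19 stands apart at 0.83 to 2.18, and on the right Krt8 lies at 0.83 to 1.07 and Ocln at -0.77 to -0.43.

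How far these differences move with the probe disagreement score was measured by adding the score to the model. Of the 33 member values called, 6 were then still called, 26 lost the call and 1 turned its sign. The 6 were the 8 h rise of Krt19 in TAp73+/+ (1.92, adjusted p = 0.00168) and in TAp73-/- (1.67, adjusted p = 0.000134), the 8 h rise of Cldn4 in TAp73-/- (0.76, adjusted p = 0.00282), and Cdh1 between the genotypes. For Cdh1 the difference was 0.89 after 4 h, 1.15 after 8 h and 1.06 over the 3 times (adjusted p = 0.0114, 0.0279 and 0.0346). The genotype difference of Krt8 was then 0.42 untreated, 0.57 at 4 h and 0.68 at 8 h (adjusted p = 0.781, 0.228 and 0.379). For Krt18 it was 0.45 to 0.88 and for Ocln -1.03 to -0.55, none called. Krt19 over the 3 times went from 0.35 (adjusted p = 0.00645) to -0.12 (adjusted p = 0.884). Over all genes the score cut the calls between untreated genotypes from 4175 to 173 and those at 4 h in TAp73+/+ from 3043 to 16, while those at 8 h in TAp73-/- went from 2268 to 2330. The score sets the untreated and 8 h TAp73+/+ arrays above all TAp73-/- arrays. The 4 h TAp73+/+ arrays, at -0.0760 and -0.104, lie beside or within the TAp73-/- range of -0.365 to -0.0934. It thus overlaps in part with genotype and with time, and its part in the results was not tested further.

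Genes known to respond to low oxygen gave a scale for the hypoxia values. Of 10 such reference genes, including Vegfa, Slc2a1 and Pdk1, 8 rose in TAp73+/+ and 9 in TAp73-/- at both times. Their median difference was 1.88 at 4 h and 2.01 at 8 h in TAp73+/+, and 1.68 and 1.72 in TAp73-/-. Krt19 at 1.53 and 0.83 after 4 h lay below the medians of that time, in TAp73+/+ and TAp73-/-. By 8 h Krt19 at 2.18 and 1.73 lay near the medians, and Cldn4 at 0.64 and 0.79 below them. Cldn4 read only 4.85 to 6.57 (log2 signal) over the arrays, the lowest of these below detection.

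**Figure D5:**
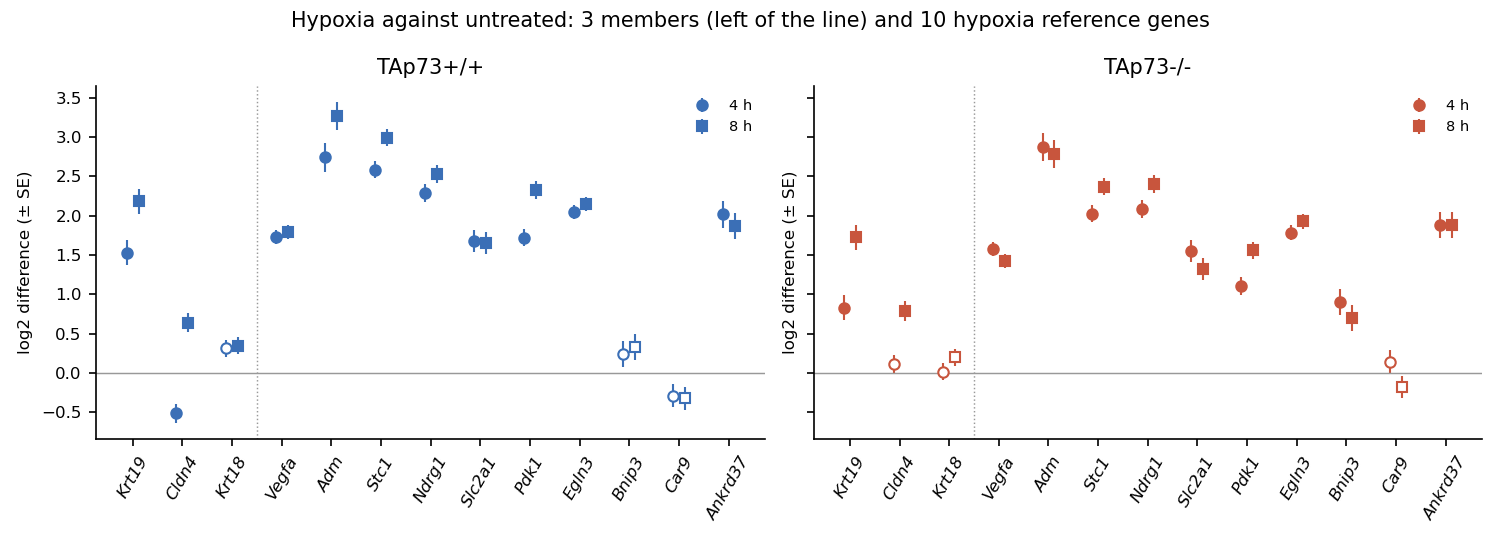
Log2 difference of hypoxia against untreated cells (y axis, ± SE) at 4 h and 8 h in each genotype for Krt19, Cldn4 and Krt18 and for 10 hypoxia reference genes (x axis); filled symbols are called. Krt19 reaches 2.18 in TAp73+/+ and 1.73 in TAp73-/- at 8 h, and Cldn4 reaches 0.64 and 0.79.

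By symbol, 49 keratin genes are on the array and 7 passed the filter, namely Krt8, Krt18 and Krt19 of the members and Krt10, Krt13, Krt20 and Krt82. Of the 25 further keratin genes listed for comparison, which do not include Krt82, 3 passed. Where a gene was undetected on both arrays of a group, its fold is a lower bound, set against the lowest signal that counted as detected. Krt13, a keratin of stratified mucosa, was 1.61-fold higher or more in untreated TAp73-/- cells, since it was undetected in TAp73+/+ (adjusted p = 3.71e-05). It passed the filter only through TAp73-/- arrays, so its direction was in part set by the filter. After 8 h it was higher by at least 1.13-fold (adjusted p = 0.000279). After 4 h it was called higher too (adjusted p = 0.0217), but with both TAp73+/+ arrays below detection and a TAp73-/- mean of 5.02 no fold can be given. Krt20, a keratin of intestinal epithelium, was higher by 1.34 in untreated cells and by 0.79 after 4 h, and after 8 h by at least 2.86-fold (adjusted p = 0.000809, 0.0156 and 0.000123). Its TAp73+/+ means were 4.97 untreated and 4.92 after 4 h. The lowest signals that counted as detected on those arrays were 5.06 to 5.08, so the size of the untreated and 4 h differences is uncertain. Krt10, a keratin of the epidermis, was called in no genotype comparison at a single time. Under hypoxia Krt10 fell by 0.41 in TAp73+/+ at 4 h (adjusted p = 0.0359), and Krt13 fell by 0.73 at 4 h and by 0.53 at 8 h in TAp73-/- (adjusted p = 0.00410 and 0.00826).

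Other tight junction genes were called in both directions. Of all genes, 18.0% were called higher and 20.4% lower untreated, 18.5% and 18.0% after 4 h, and 18.2% each way after 8 h. Of 16 tested, 3 were higher and 3 lower in untreated TAp73-/- cells, 5 higher and 3 lower after 4 h, and 2 higher and 3 lower after 8 h, with list medians of 0.12, 0.13 and -0.10. Jam2, a junctional adhesion molecule, was at least 1.91-fold, 2.68-fold and 2.79-fold higher at the 3 times. It was undetected on the TAp73+/+ arrays and passed the filter only through TAp73-/- arrays, so its direction was in part set by the filter. Cgnl1, a relative of the junction protein cingulin, was higher by 0.52, 0.73 and 0.33, and Marveld3, a relative of occludin, fell by 0.58, 0.38 and 0.70 from TAp73+/+ to TAp73-/-. Hypoxia called 2 of the 16 lower at 4 h and none at 8 h in TAp73+/+, and 1 higher at 4 h and 1 each way at 8 h in TAp73-/-. Of all genes, it called 28.0% and 23.9% in TAp73+/+, and 6.96% and 20.9% in TAp73-/-, in either direction.

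Of 13 adherens junction genes tested beside Cdh1, 2 were higher and 3 lower in untreated TAp73-/- cells, 3 higher and 1 lower after 4 h, and 3 each way after 8 h. For this and the next list, 18.0% to 18.5% of all genes were called higher and 18.0% to 20.4% lower. Nectin2, an adhesion molecule of these junctions, was higher by 0.84, 0.72 and 0.36, while its relative Nectin3 was at -0.49, -0.33 and -0.65, all called. Other probes of these genes did not all share the sign: 1 of the 2 others of Nectin2 at 4 h, and 1 of the 2 others of Nectin3 at 4 h and at 8 h, had the opposite one. Cdh6, which encodes another cadherin, was higher by 0.65, 0.50 and 0.57 and rose at 8 h of hypoxia by 0.50 in TAp73+/+ and by 0.42 in TAp73-/-. Of 11 desmosome and cytolinker genes, which tie keratin filaments to the membrane, 1 was higher and 2 lower untreated, 5 higher and 1 lower after 4 h, and 1 each way after 8 h. Itgb4, an integrin of hemidesmosomes, was higher by 0.55, 0.86 and 1.06, and Ppl, which encodes periplakin, was at -0.69, -0.67 and -1.05, with 1 of its 2 other probes of opposite sign at 4 h. Pkp2, which encodes the desmosomal plakophilin-2, rose with hypoxia by 0.83 and 0.52 in TAp73+/+ and by 0.69 and 0.73 in TAp73-/- at 4 h and 8 h.

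Regulators of epithelial identity were called in both directions. Of 14 tested, 2 were higher and 5 lower untreated, 2 higher and 4 lower after 4 h, and 1 higher and 6 lower after 8 h, where 20.4%, 18.0% and 18.2% of all genes were called lower. The list medians were -0.06, -0.25 and -0.11, against -0.03, -0.03 and -0.01 over all genes. Grhl1, a transcription factor of epithelia, was at -0.75, -1.13 and -1.04, and Spint2, a membrane protease inhibitor, was higher by 0.95 untreated and 0.63 at 4 h. Of the 11 regulators of the mesenchymal transition, 3 were higher and 4 lower untreated, 3 each way after 4 h, and 3 higher and 5 lower after 8 h. The shares of all genes called higher at the 3 times were 18.0%, 18.5% and 18.2%, and those called lower are given above. Snai1, a repressor of Cdh1, was higher in TAp73-/- by 0.67, 0.86 and 0.50, and Zeb1, another such repressor, was at -0.75, -0.86 and -0.84. Snai2, also of this kind, fell at 8 h of hypoxia by 0.65 in TAp73+/+ and by 0.56 in TAp73-/-.

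For markers of other cell types the summed levels of 2 lists were higher on all TAp73-/- arrays than on any TAp73+/+ array, but their members did not all go the same way. The summed signal of 7 mesothelial markers, of which 2 passed the filter, was 7.53 to 7.76 (log2) in TAp73+/+ and 7.94 to 8.15 in TAp73-/-. Of these, Gpm6a was called higher at all 3 times and Bnc1 lower at 8 h, by 1.26 and -0.50. That of 14 trophoblast and pluripotent cell markers, of which 4 passed, was 8.74 to 8.96 and 9.15 to 9.43. Gata3, Plac1 and Eomes were called higher at all 3 times, and Pou5f1 was called lower over the 3 times together. Plac1 read at most 4.78 on TAp73+/+ arrays, below detection. It passed the filter only through TAp73-/- arrays, so its direction was in part set by the filter. Endothelial markers summed to 7.91 to 8.09 over all arrays, with 2 of 10 past the filter, and macrophage markers to 8.55 to 8.91, with 2 of 9. The sums of all these lists include undetected genes, which add background signal. In the macrophage sum Cd14, with a mean of 7.86, weighs most. Neither list had a call between the genotypes untreated or at 4 h, and Esam, an endothelial adhesion molecule, was called higher at 8 h. Over the 3 times together, Esam and the macrophage marker Cd14 were called higher in TAp73-/-, where 59.8% of all genes were called in either direction. The part of such cells in the differences of Krt8, Krt18, Cdh1 and Ocln was not tested.

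The genes most like each member were taken by Pearson correlation over the 12 arrays, among genes that ranged over at least 1 log2 unit. All points share the 12 arrays and the 6 groups. Krt19 was closest to Lonp1 (r = 0.982), P4ha2 (0.980) and Pard6a (0.974), Krt8 to Mgst1 (0.978), Tmem106a (0.972) and Gap43 (0.967), and Krt18 to Cda (0.980), Sgms2 (0.967) and Cited1 (0.955). Cdh1 was closest to Galnt3 (0.953), Slc3a2 (0.951) and Hoxa2 (0.950), Cldn4 to B3gnt8 (0.959), Ppfia3 (0.930) and Klf2 (0.928), and Ocln to Cdk5r1 (0.954), Igip (0.932) and Ago4 (0.927). The closest to Cldn7 was Abca2 at 0.801, followed by Mdga1 (0.770) and Tmem86b (0.758).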

How the data were processed

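RNA of 12 samples was read on Illumina mouse bead arrays after biotin labelling of cRNA, per the labels' protocols. The deposited scanner tables give a summarised intensity and a detection p-value per probe with no normalization, per the file headers, and a deposited value table holds signals whose ranks equal those intensities, named as quantile-normalised here from their equal medians. The submitters' processing notes name Partek. Intensities were corrected and quantile-normalised with limma 3.58.1 (neqc, offset 16) in R 4.3.3, giving log2 signals computed from the deposited intensities. Of 45281 probes 21223 passed detection, and the brightest probe stood for each of 10873 genes with 1 symbol. One linear model with a mean for each of the 6 groups gave 12 contrasts (limma, Benjamini-Hochberg over all genes, 6 residual degrees of freedom). The labels name no slide or date, so no batch was checked. Same-numbered replicates deviated together with correlations of -0.250 to 0.125 over 15 group pairs, 2 above 0.1, so the numbers were not taken to pair arrays. The fit was tested on simulated data. Genes named are all members, up to 3 called genes each way per list and contrast, selected markers with the highest signal, and the 3 genes most correlated with each member; examples of detected or undetected marker and regulator genes, the hypoxia examples, and the genes named beside a count were chosen after their values were seen. The members and lists were chosen with earlier results of these data known. The number of arrays limits the precision.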

Additional observations from a re-analysis of the deposited data

Results flagged for a closer look

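Synm, which encodes the intermediate filament protein synemin, was the gene of these lists whose response to 8 h of hypoxia differed between the genotypes by the test of that difference, by 0.98 ± 0.15 (log2, adjusted p = 0.0210). It rose by 0.71 in TAp73+/+ and by 1.68 in TAp73-/-, and untreated TAp73-/- cells differed from untreated TAp73+/+ cells by -1.53. The other probes of Synm gave 0.54 and 0.19 for the same difference.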

How the results depend on the processing

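Each group has 2 arrays. Of 33 called member values, 22 stayed called whichever array was left out, 29 under the 8 alternatives of normalization, filter, probe choice and replicate block, and 22 under both. Among the 8, the deposited values and the fit without background correction are nearly the same fit. They called 2561 and 2562 genes at 8 h in TAp73-/-. With 1 array left out in turn, the number of members called ran from 1 to 3 (4 h) and 2 to 3 (8 h) in TAp73+/+ and 1 to 2 between these times. In TAp73-/- it ran from 0 to 1, from 2 to 2 and from 0 to 2. Between the genotypes it ran from 4 to 5 untreated, 3 to 5 at 4 h, 3 to 5 at 8 h and 6 to 7 over the 3 times, and it was 0 for both differences in response. With the probe disagreement score as a covariate the numbers were 0, 1 and 0 in TAp73+/+ (4 h, 8 h, 8 h against 4 h), 0, 2 and 0 in TAp73-/-, and 0, 1, 1 and 1 between the genotypes, and Krt19 over the 3 times reversed to -0.12. The cause was not tested. With the replicate number as a block they were 2, 2 and 2 in TAp73+/+, 1, 2 and 2 in TAp73-/-, 4, 5, 5 and 6 between the genotypes, and 0 for both differences in response. The block ended the calls of Krt18 at 8 h in TAp73+/+ (adjusted p = 0.0579) and Cdh1 untreated (0.0643) and no other member call.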
